A study of Mus musculus with 8 samples.

Results

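The α- and β-tubulin genes of mouse islets were followed across islets that lack integrin β1 in their endocrine cells and control islets. The 10 genes are *Tuba1a*, *Tuba1b*, *Tuba1c* and *Tuba4a* among the α-tubulins and *Tubb2a*, *Tubb2b*, *Tubb3*, *Tubb4b*, *Tubb5* and *Tubb6* among the β-tubulins, out of 24091 genes in the count table, and each was found by its symbol. They were proposed from the same mutant and control counts that are described here, so the difference between genotypes is given as a description and carries no test. All 10 had enough counts to enter the fit across 15233 genes.

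RNA was sequenced from 4 mutant and 4 control islet samples of 6-week-old mice on a C57BL/6 background. The mutants are labelled Ngn3-Cre, itgb1-/- (floxed *Itgb1* alleles recombined by Cre in Ngn3+ endocrine progenitors, so cells of other lineages in the islet keep the gene), and the controls are labelled wild-type, with no further allele given. Both genotypes were treated alike, in that islets were released with collagenase, recovered overnight in culture medium and used at 10 to 30 islets per RNA preparation. The design text speaks of biological replicates but no label ties a library to an animal, so the spread between libraries may be technical in part.

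α-Tubulin and β-tubulin form the heterodimers from which microtubules polymerise, and mammals encode each of them in several genes, the isotypes, which differ mainly in the acidic tail at the end of the protein. The tails carry most of the modifications that motors and microtubule-associated proteins read. In β-cells the microtubules form a dense network without a single organising centre, along which insulin granules are moved and held back from the membrane.

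*Itgb1* itself was at 266, 225, 193 and 255 CPM (TMM-normalised counts scaled to a common library size) in mutant libraries 1 to 4, against 422, 432, 408 and 315 CPM in control libraries 1 to 4. All mutants thus lay under all controls. Reads were summed over the whole gene. The libraries held 39.6 to 63.9 M counts in mutants and 35.1 to 67.6 M in controls, and mutant 3, control 2 and control 3, each with over 50 M, stood apart from the 5 smaller ones. The defining markers of β-cells were abundant in all libraries, with a summed level of 31225 to 48766 CPM in mutants, against 32084 and 33699.8 CPM in controls 1 and 4 and 119483 and 171983 CPM in controls 2 and 3. Of these 8 markers 8 had a lower mean in mutants, and their median log2 fold change was -1.25 over all libraries and 0.04 within the smaller ones. Markers of α-, δ- and PP-cells summed to 11919 to 22083 CPM in mutants and 22927 to 96128 CPM in controls, so that every mutant lay below all controls. Of these 6 markers 6 had a lower mean in mutants, with a median log2 fold change of -0.95 that was -0.59 within the smaller libraries. Taken singly, 0 of them lay below all controls in every mutant. Markers of acinar cells summed to 65.1 to 572 CPM in mutants and 15.3 to 8424 CPM in controls, where controls 2 and 3 held 2682 and 8424 CPM, with *Amy2a5* and *Ptf1a* near 0 throughout. *Xist* was at 1225 CPM in mutant 3 and 1125 CPM in control 3, and at most at 0.752 CPM in the other libraries. Values are therefore given over all 8 libraries, with library set as a term in the fit, and within the 5 smaller libraries.

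*Tuba1b*, *Tuba1c* and *Tubb5* were higher in each mutant library than in any control library, by 1.66, 1.72 and 1.67 times in the mean. No tubulin gene was lower in all mutants than in all controls. Of all genes tested, 4.4% lay above and 3.8% below the controls in this way. None of the 10 members passed the calling rule of edgeR's quasi-likelihood test (Benjamini-Hochberg adjusted p under 0.05 with more than a 2-fold change), as did 0% of all genes. At an unadjusted p under 0.05 the test counted 4 members higher (*Tuba1b*, *Tuba1c*, *Tuba4a* and *Tubb5*) and 0 lower, against 6.4% and 6.89% of all genes. DESeq2 called 0 members and 1.22% of all genes by the same rule. Without the requirement on fold change, DESeq2 placed *Tubb5* and *Tuba1b* among the 1.21% of genes that were higher at an adjusted p under 0.05. With library set as a term, edgeR's test called 0 members, beside 0.0263% of all genes. Because the members were chosen on this contrast, nothing is read from these shares.

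**Figure D1:**
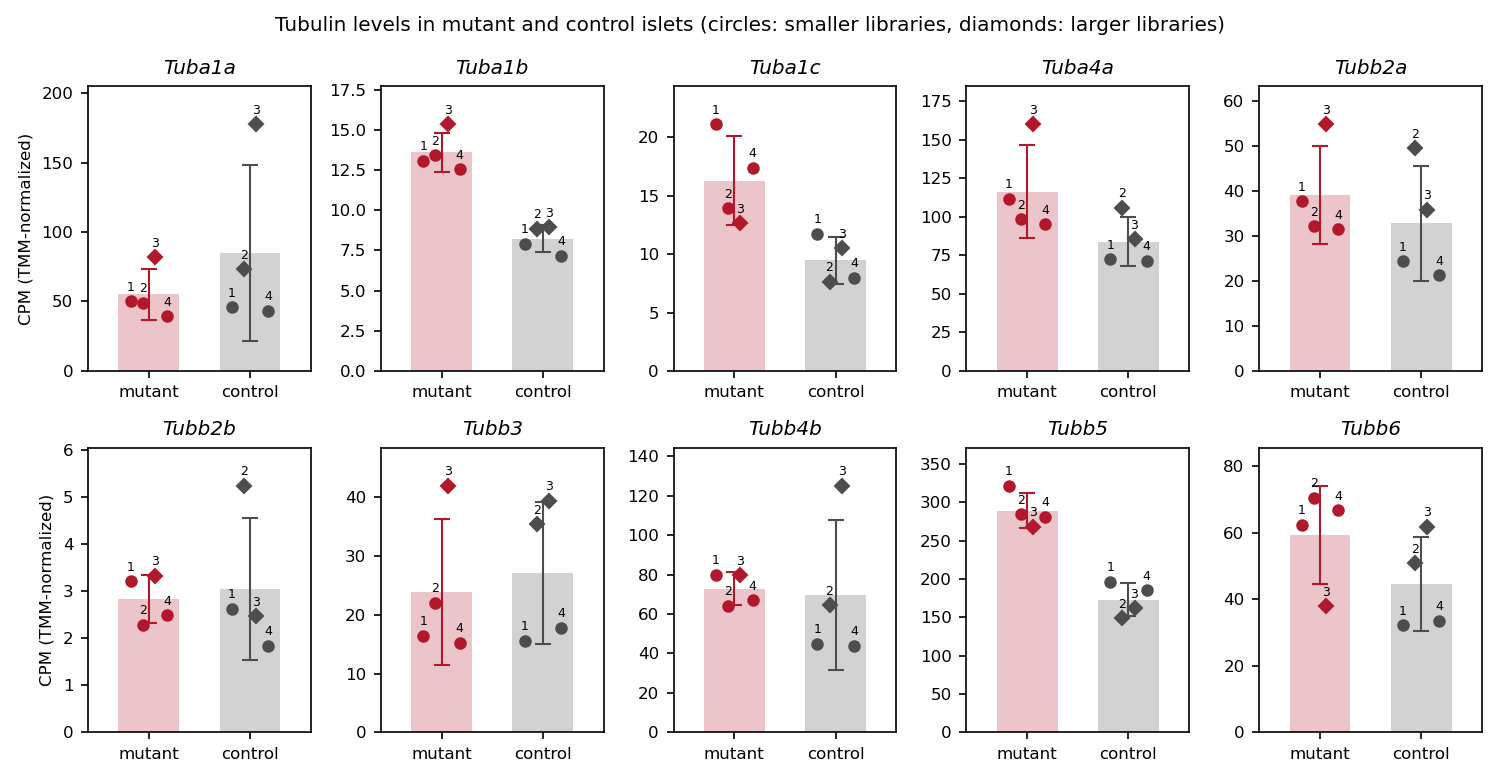
Level of each tubulin gene in CPM (y axis, linear, from 0) in the 4 mutant and 4 control libraries, numbered by replicate; bars are means, error bars are SD, and diamonds mark the 3 larger libraries. The mutant points of *Tuba1b*, *Tuba1c* and *Tubb5* lie above all control points, and control 3 stands highest for *Tuba1a* (178 CPM) and *Tubb4b* (125 CPM).

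Several members are near copies of each other, which limits how far their counts can be told apart. The coding sequences of *Tuba1a* and *Tuba1b* were 98.3% identical and those of *Tubb2a* and *Tubb2b* 96.5%, over 1356 and 1338 bases. The last 60 bases before the stop codon encode the acidic tail, and those of *Tubb2a* and *Tubb2b* are shown here because this is where isotypes usually differ most. They were read from GENCODE vM21 on chromosome 13, 5′ to 3′, with capitals at the positions that differ.
*Tubb2a*: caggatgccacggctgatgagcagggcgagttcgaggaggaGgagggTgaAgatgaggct
*Tubb2b*: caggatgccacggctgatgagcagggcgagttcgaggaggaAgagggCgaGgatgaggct
The pair differs at 3 bases of this stretch, and none of them changes the encoded amino acid.

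A 50-base read, the length sequenced, can be assigned to a single gene only where its sequence occurs in no other. The share of 50-base stretches of the transcript found in no other GENCODE vM21 gene was 100% for *Tubb3* and *Tubb6* and 99.9% for *Tubb5*. It was 24.5% for *Tuba1a*, 16.9% for *Tuba1b* and 39.0% for *Tuba1c*, which shared most of the rest among themselves. *Tubb2a* had 50.4% and *Tubb2b* 60.7%, each sharing mostly with the other, and *Tubb4b* had 44.5%, sharing mostly with the pseudogene *Tubb4b-ps1*. *Tuba4a* had 51.2%, and 47.7% of its stretches were shared with *Stk16*, a gene on the opposite strand, whose span overlaps that of *Tuba4a* by 635 bases in the table's coordinates. featureCounts at its default parameters leaves out reads that fit several places and does not use strand. The levels of all members other than *Tubb3*, *Tubb5* and *Tubb6* are thus uncertain, those of *Tuba1a*, *Tuba1b* and *Tuba1c* most of all.

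Divided by gene length (CPM per kb), *Tubb5* had the highest counted level of the members in mutant islets. It was at 109 ± 8.66 there, against 65.5 ± 8.21 in control islets (SD, n = 4 each). The length was the deposited one (1.587 kb for *Tuba1a*, less than its genomic span) and was not cut to unique stretches. Reads that fit several places were left out. Members with few unique stretches, such as *Tuba1a* (24.5%), are thus counted too low beside *Tubb5* (99.9%), so the true order may differ. In mutants *Tubb5* was followed by *Tuba4a* (50.01 ± 12.9), *Tubb4b* (45.6 ± 5.23) and *Tuba1a* (34.7 ± 11.6). Their ranges over the libraries overlapped with each other but not with that of *Tubb5*. In controls the order after *Tubb5* was *Tuba1a* (53.5 ± 39.8), *Tubb4b* (43.6 ± 23.9) and *Tuba4a* (36.0 ± 6.88), and the ranges of *Tuba1a* and *Tubb4b* also overlapped with that of *Tubb5*. *Tubb6*, *Tubb2a* and *Tubb3* came next in either genotype, with means per kb of 13.9 to 28.5 in mutants and 15.7 to 21.4 in controls and overlapping ranges. *Tuba1b* and *Tuba1c* did not differ beyond their spread in either genotype, at 8.74 ± 0.786 and 8.24 ± 1.93 per kb in mutants and 5.28 ± 0.539 and 4.79 ± 1.01 in controls. *Tubb2b* was lowest, at 1.47 ± 0.269 per kb in mutants and 1.58 ± 0.782 in controls.

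Among the α-tubulins, *Tuba1a* (chr15:98949847-98953501, minus strand, GRCm38), the main α-tubulin of developing neurons, was at 50.3, 49.0, 81.8 and 39.4 CPM in mutants 1 to 4, against 45.8, 73.2, 178 and 43.3 CPM in controls 1 to 4. The genotypes overlapped, and the control mean was carried by control 3. The log2 fold change, mutant over control, was -0.62 (SE 0.46) over all libraries, -0.18 with library set as a term, 0.05 within the smaller libraries and 0.03 without control 3. In either genotype the larger libraries held the highest levels.

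*Tuba1b* (chr15:98931431-98934390, minus strand), an α-tubulin expressed in most cells, was at 13.1, 13.4, 15.4 and 12.5 CPM in mutants, against 7.91, 8.85, 8.95 and 7.18 CPM in controls. Both groups were tight and did not overlap. Its log2 fold change was 0.73 (SE 0.14), and 0.79 and 0.78 with the library set term and within the smaller libraries. *Tuba1c* (chr15:99029891-99038105, plus strand), a near copy, was at 21.1, 13.9, 12.6 and 17.4 CPM in mutants, against 11.8, 7.63, 10.5 and 7.96 CPM in controls. The groups again did not overlap, but mutant 3 was only slightly above control 1. The log2 fold change of *Tuba1c* was 0.78 (SE 0.22) over all libraries, 0.70 with the library set term and 0.82 within the smaller libraries.

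*Tuba4a* (chr1:75214972-75219294, minus strand), the α-tubulin whose gene encodes no tyrosine at the end of the tail, was at 112, 98.2, 160.0 and 95.2 CPM in mutants, against 72.6, 106, 85.3 and 71.5 CPM in controls. A single control, control 2, reached into the range of the mutants. The log2 fold change was 0.47 (SE 0.20), with 0.59 under the library set term and 0.49 within the smaller libraries, where the groups were apart.

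Among the β-tubulins, *Tubb5* (chr17:35833920-35838301, minus strand), a widely expressed isotype, was at 321, 285, 268 and 281 CPM in mutants, against 196, 149, 162 and 185 CPM in controls. The lowest mutant stood well above the highest control. Its log2 fold change was 0.74 (SE 0.12) over all libraries, 0.69 with the library set term and 0.63 within the smaller libraries, and mutant 3 stood 0.79 above the mean of controls 2 and 3 on the log2 scale. *Tubb5* also had nearly unique reads, which *Tuba1b* and *Tuba1c* did not.

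*Tubb6* (chr18:67390731-67402749, plus strand), a β-tubulin found mostly outside neurons, was at 62.4, 70.6, 38.0 and 66.9 CPM in mutants, against 32.2, 50.8, 61.8 and 33.6 CPM in controls. In the smaller libraries the mutants were all above the controls, and in the larger ones the order was turned round. The log2 fold change was 0.41 (SE 0.26) over all libraries and 1.01 (SE 0.08) within the smaller ones, while mutant 3 differed by -0.57 from the mean of controls 2 and 3. *Tubb4b* (chr2:25222158-25224702, minus strand), a widely expressed isotype that is also prominent in cilia, was at 80.0, 64.1, 79.7 and 67.0 CPM in mutants, against 44.9, 64.4, 125 and 44.0 CPM in controls. Its log2 fold change was 0.06 (SE 0.32), and it was 0.66 within the smaller libraries, 0.51 without control 3 and -0.10 without either control 1 or control 4, so its direction rested on single libraries.

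*Tubb2a* (chr13:34074280-34078008, minus strand) and *Tubb2b* (chr13:34127008-34130354, minus strand) are neighbours and are best known from the brain. *Tubb2a* was at 37.8, 32.2, 54.9 and 31.6 CPM in mutants, against 24.5, 49.6, 35.9 and 21.3 CPM in controls, with a log2 fold change of 0.25 (SE 0.29), 0.49 with the library set term and 0.04 without mutant 3. *Tubb2b* was at 3.21, 2.29, 3.32 and 2.49 CPM in mutants, against 2.62, 5.23, 2.47 and 1.84 CPM in controls, with a log2 fold change of -0.10 (SE 0.35) that was 0.29 without control 2. The genotypes overlapped for either gene, and the larger libraries again held the highest value of *Tubb2a* in each genotype. *Tubb3* (chr8:123411564-123422010, plus strand), the neuronal β-tubulin that islet endocrine cells also make, was at 16.4, 22.1, 41.9 and 15.2 CPM in mutants, against 15.6, 35.4, 39.4 and 17.8 CPM in controls. The larger libraries of both genotypes were high and the smaller ones low. The log2 fold change of *Tubb3* was -0.18 (SE 0.41) over all libraries, 0.12 with the library set term, 0.09 within the smaller libraries and 0.06 without control 3.

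**Figure D2:**
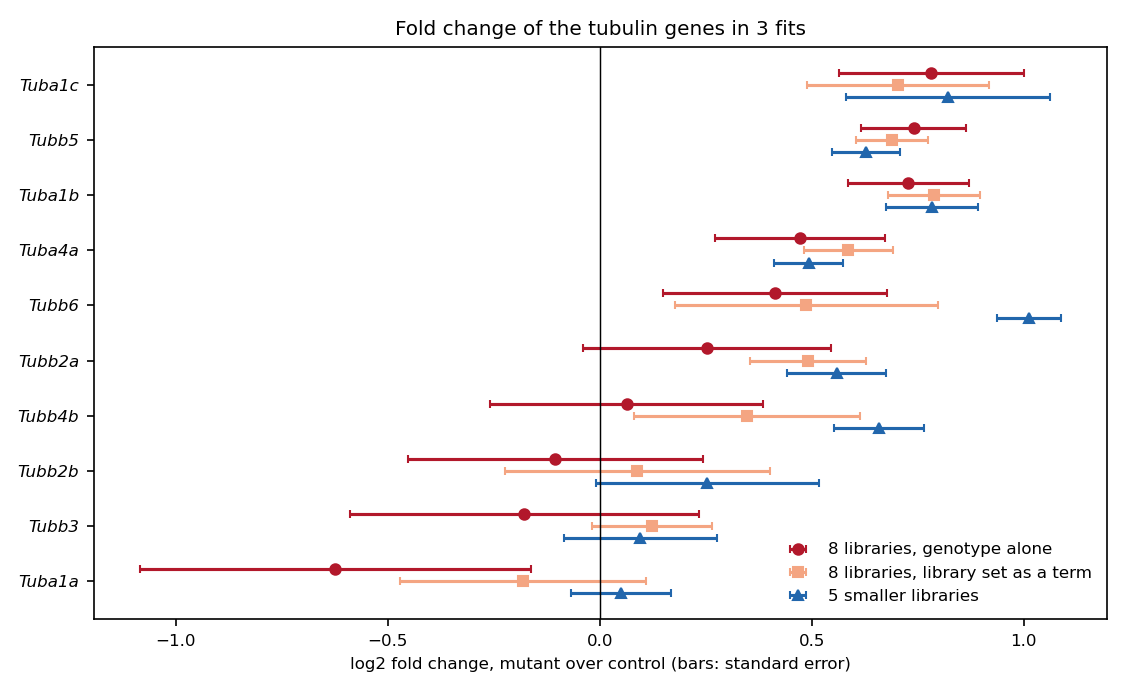
Log2 fold change of each tubulin gene, mutant over control (x axis), with its standard error (bars), in the fit of 8 libraries with genotype alone, the fit with library set as a term, and the fit of the 5 smaller libraries. *Tuba1b*, *Tuba1c*, *Tuba4a* and *Tubb5* stay near their value in all fits, while *Tubb6* reaches 1.01 within the smaller libraries and *Tuba1a* moves between -0.62 and 0.05.

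The median log2 fold change of the members was 0.33, beside 0.00 for all genes tested, and it was 0.49 with the library set term and 0.59 within the smaller libraries. Without single libraries it was lowest without mutant 3 (0.16), control 4 (0.20) and control 1 (0.21), and highest without control 2 (0.50) and control 3 (0.49). The mean was higher in mutants for 7 members and lower for 3, beside 50.2% of all genes higher. With the library set term it was higher for 9 members and lower for 1, *Tuba1a*, beside 50.7% of all genes higher. In these whole-islet libraries, more cells of a type and more RNA per cell cannot be told apart. Summed markers of fibroblasts and pericytes, cells that keep *Itgb1*, were at 676, 767, 827 and 897 CPM in mutants, against 451, 349, 485 and 330.2 CPM in controls. Of these 9 markers, 8 had a higher mean in mutants, 6 were above all controls in every mutant, and none was at 0. Summed duct markers were at 2944, 1586, 1060 and 1822 CPM in mutants, against 1609, 519, 304 and 990 CPM in controls, and 5 of 6 had a higher mean in mutants. Every mutant was below all controls in the summed markers of α-, δ- and PP-cells given above, but narrowly (22083 against 22927 CPM). Of those 6 markers, 0 lay apart in this way when taken singly. The part of any of these cells in the higher levels of *Tuba1b*, *Tuba1c* and *Tubb5* was not tested.

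Sums are over the 10 members and leave out other tubulins such as *Tubb4a*. Together the members were at 718, 650.3, 756 and 629 CPM in mutants, against 454, 549.7, 709 and 434 CPM in controls. The mutant mean was 688 ± 58.8 CPM and the control mean 537 ± 125 CPM (SD, n = 4 each), a log2 ratio of 0.36, and the groups overlapped through control 3. The β-tubulins alone were at 521, 476, 486 and 465 CPM in mutants, against 316, 354, 426 and 304 CPM in controls, without overlap, a log2 ratio of 0.48. The α-tubulins were at 196, 175, 269.8 and 165 CPM in mutants, against 138, 196, 282 and 129.9 CPM in controls, and overlapped, with a log2 ratio of 0.11. The sum of the β-tubulins thus lay apart between genotypes, mostly through *Tubb5*, while *Tuba1a* of control 3 widened the α-tubulin sum.

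Since the heterodimer takes α- and β-tubulin in equal number, the length-scaled sums of the classes were also set against each other. The β over α ratio of CPM per kb was 2.39, 2.43, 1.68 and 2.55 in mutants, against 2.02, 1.73, 1.35 and 2.08 in controls. Within the smaller libraries each mutant was above each control, and mutant 3 lay among the controls. Reads that fit several places were left out, more of them for *Tuba1a*, *Tuba1b* and *Tuba1c* than for *Tubb5*. Reads of *Tubb2a*, *Tubb2b* and *Tubb4b* were lost too, and *Tuba4a* shares 47.7% of its stretches with *Stk16*. The net shift of the ratio is thus not known, and the ratio does not give that of messages in the cell.

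The isotype makeup within a class does not depend on the scaling between libraries. *Tuba1a* made up 32.1, 34.8, 37.7 and 30.1% of the α-tubulin CPM per kb in mutants, against 40.6, 45.6, 70.1 and 40.9% in controls, so that it was lower in every mutant. *Tuba4a* made up 48.6, 47.6, 50.4 and 49.5% in mutants, against 43.9, 45.00, 23.0 and 46.1% in controls, and was higher in every mutant, as was *Tuba1b* at 8.50, 9.72, 7.22 and 9.74%, against 7.14, 5.61, 3.60 and 6.91%. *Tuba1c* overlapped between genotypes, at 8.53 ± 2.88% in mutants and 5.40 ± 2.32% in controls (SD, n = 4 each). These shares sum to the whole, so a lower share of *Tuba1a* raises the others, and the near-identical copies limit them as they do the levels.

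*Tubb5* made up 51.4, 49.9, 44.1 and 50.6% of the β-tubulin CPM per kb in mutants, against 51.7, 32.1, 28.4 and 50.6% in controls. Its share in the smaller libraries was thus alike in mutants and controls even though its level was not, as the fold changes of the other β-tubulins were also above 0 there. The larger libraries gave their share to other isotypes. *Tubb4b* reached 36.3% in control 3, *Tubb2a* 17.7% in control 2 and *Tubb3* 10.6% in mutant 3, against 11.8 and 10.6% in controls 2 and 3. No β-tubulin had a share that separated the genotypes. Reads of *Tubb2a*, *Tubb2b* and *Tubb4b* that fit several places were left out, which raises the share of *Tubb5*.

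**Figure D3:**
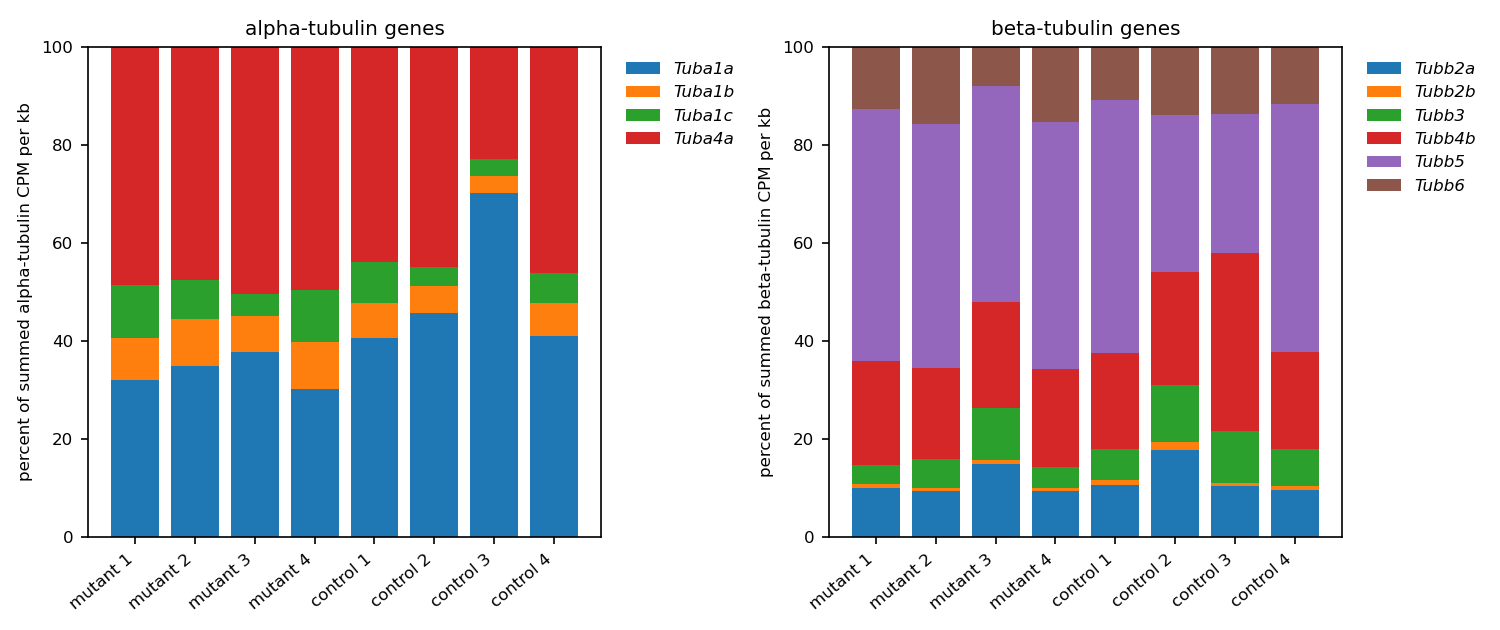
Share of each gene in the summed CPM per kb of its class (y axis, percent) for the α-tubulins (left) and β-tubulins (right), in mutant libraries 1 to 4 and control libraries 1 to 4. *Tuba1a* takes 30.1 to 37.7% of the α-tubulins in the mutants and 70.1% in control 3, and *Tubb5* takes 44.1 to 51.4% of the β-tubulins in the mutants, against 32.1 and 28.4% in controls 2 and 3.

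The sequences before the gene starts of the members that lay apart between genotypes are shown with that of *Tuba1a*, the neighbour of *Tuba1b*. They are the 250 bases upstream of the start, from RefSeq on GRCm38.p6, 5′ to 3′ on the strand of the gene. Capitals mark 4 motifs searched on both strands. These are CCAAT, the box bound by NF-Y, and the GC box GGGCGG. The others are ACGTG, the core of hypoxia response elements and of the E-box CACGTG, and the TATA box TATAAA.
*Tubb5* (chr17:35838302-35838551, minus strand): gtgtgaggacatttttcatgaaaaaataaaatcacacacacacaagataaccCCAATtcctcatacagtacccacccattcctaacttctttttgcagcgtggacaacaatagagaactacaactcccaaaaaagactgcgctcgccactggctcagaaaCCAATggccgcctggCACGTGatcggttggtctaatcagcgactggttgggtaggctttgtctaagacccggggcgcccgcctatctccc
*Tuba1b* (chr15:98934391-98934640, minus strand): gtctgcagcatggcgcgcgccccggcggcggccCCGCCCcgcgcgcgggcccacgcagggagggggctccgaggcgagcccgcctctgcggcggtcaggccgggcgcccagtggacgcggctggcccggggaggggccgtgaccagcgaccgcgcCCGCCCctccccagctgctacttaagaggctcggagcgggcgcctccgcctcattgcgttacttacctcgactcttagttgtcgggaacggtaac
*Tuba1c* (chr15:99029641-99029890, plus strand): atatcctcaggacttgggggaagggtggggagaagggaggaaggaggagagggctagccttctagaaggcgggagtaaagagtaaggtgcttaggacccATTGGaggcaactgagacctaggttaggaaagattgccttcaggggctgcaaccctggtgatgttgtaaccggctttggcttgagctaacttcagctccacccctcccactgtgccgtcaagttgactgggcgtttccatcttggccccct
*Tuba1a* (chr15:98953502-98953751, minus strand): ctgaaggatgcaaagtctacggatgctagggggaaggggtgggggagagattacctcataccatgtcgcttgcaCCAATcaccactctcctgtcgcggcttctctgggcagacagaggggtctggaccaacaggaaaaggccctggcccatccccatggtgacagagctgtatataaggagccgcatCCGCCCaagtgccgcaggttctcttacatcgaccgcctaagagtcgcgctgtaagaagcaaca

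The *Tubb5* window held CCAAT at 198 and 90 bases before the start and a palindromic CACGTG that gives 2 overlapping ACGTG matches, the first beginning at 75 bases. *Tuba1b* held GGGCGG at 217 and 95 bases, *Tuba1c* held CCAAT at 151 bases, and *Tuba1a* held CCAAT at 176 and GGGCGG at 63 bases. Of the other members with a window at the gene start of the table, *Tubb4b* held CCAAT at 5 positions, and *Tuba4a* and *Tubb2a* each held GGGCGG at 2 positions. No motif was common to all of *Tubb5*, *Tuba1b* and *Tuba1c*. Among 32851 RefSeq windows of 250 bases, CCAAT was in 33.8%, GGGCGG in 32.7%, ACGTG in 16.6% and TATAAA in 12.4%.

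The libraries were next compared within each genotype, which does not use the difference between genotypes. After the mean of the genotype was subtracted from log2 CPM, the median Pearson r over the 45 pairs of members was 0.25 over 8 libraries, with 30 pairs positive, and r is given as a description only, since these libraries share their depth and their content of other cells. This median was -0.062 with scaling by total counts, 0.58 without mutant 3, 0.41 without control 2 and 0.098 without control 4. The highest values were 0.94 for *Tuba1a* with *Tubb4b* and 0.94 for *Tuba4a* with *Tubb2a*, and *Tuba1b* followed *Tubb3* at 0.92. *Tubb5* ran against most of the family. Its r was -0.81 with *Tubb3*, -0.77 with *Tubb2a*, -0.69 with *Tuba1b* and -0.57 with *Tuba1a*, and positive with *Tuba1c* alone (0.64). *Tuba1b* and *Tubb5*, which had nearly the same fold change between genotypes, thus went opposite ways between libraries of a genotype.

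The same deviations were set beside the summed markers of each cell type. *Tubb5* had r = 0.86, *Tuba1c* 0.48 and *Tuba1b* -0.74 with the duct markers. *Tubb5* had r = -0.85 with the β-cell markers and -0.92 with the proliferation markers. *Tuba1a* had r = -0.85 with the duct markers, 0.85 with the β-cell markers and 0.95 with the markers of α-, δ- and PP-cells. With the fibroblast and pericyte markers r was -0.13 for *Tubb5*, 0.32 for *Tuba1b* and 0.33 for *Tuba1c*. *Tubb3* had r = 0.90 with leukocyte, -0.89 with duct, 0.83 with α-, δ- and PP-cell and 0.80 with β-cell markers. Its r was 0.73 with the proliferation markers and 0.70 with those of neurons and Schwann cells. The latter summed to 69.9 to 94.1 CPM in mutants and 79.0 to 120.4 CPM in controls. With them *Tuba1c* had r = -0.81 and *Tubb5* -0.85. *Tubb5* also had r = -0.75 with the acinar and -0.71 with the leukocyte markers. Only some of the values are given. The part of any cell type was not tested.

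**Figure D4:**
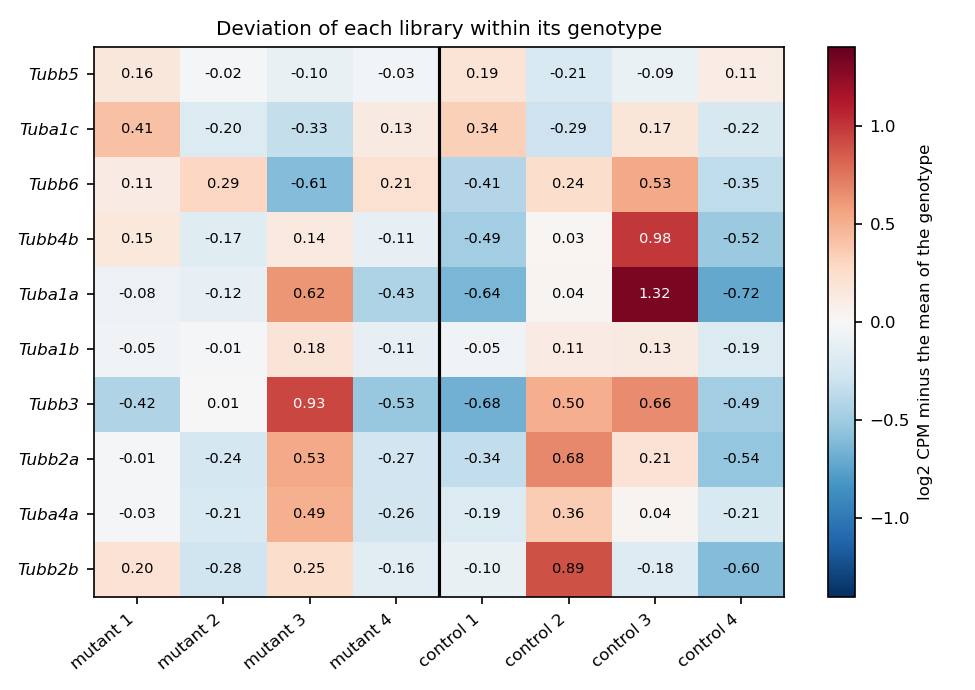
Deviation of each library from the mean of its genotype in log2 CPM (color and printed value) for the 10 tubulin genes, with mutant libraries left of the black line and control libraries right of it. *Tubb5* and *Tuba1c* are below their genotype mean in mutant 3 and control 2, where *Tubb3*, *Tubb2a* and *Tuba4a* are above it, and *Tuba1a* has the widest range, up to 1.32 in control 3.

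Of 9844 other genes with a mean above 10 CPM, those that followed the mean standardised deviation of the members most closely over the 8 libraries were *Tssc1* (r = 0.99), *Lurap1l* (0.99), *F2rl1* (0.99), *Nptx1* (0.99) and *Nrbp2* (0.99). The members themselves ranged from 0.90 for *Tuba1b* to -0.59 for *Tubb5* with this mean. With so many genes searched over 8 libraries, values of this size are a description of the libraries.

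The rest of the tubulin superfamily and the genes that fold, modify and use tubulin had list medians between -0.13 and 0.11, near that of all genes. Of 10 other tubulin genes 7 were tested, and their median log2 fold change was 0.08. *Tubg1*, the γ-tubulin from which microtubules are nucleated, was at 38.0, 33.4, 45.6 and 31.9 CPM in mutants, against 27.2, 39.98, 34.5 and 33.9 CPM in controls, with overlap and a log2 fold change of 0.14 (SE 0.16). *Tubb4a*, a β-tubulin of the brain, was at 20.5 ± 6.13 CPM in mutants and 18.4 ± 6.25 CPM in controls (SD, n = 4 each). The platelet isotype *Tubb1* had a log2 fold change of -0.84 (SE 0.43) at a mean of 1.58 CPM in mutants and 2.83 CPM in controls, and *Tube1*, the ε-tubulin of centrioles, one of 0.41 (SE 0.38). Within the smaller libraries these values were -0.24 for *Tubb1* and -0.08 for *Tube1*. *Tuba3a*, *Tuba3b* and *Tubal3* had at most 5 counts in any library and were not tested.

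Newly made tubulin is folded by prefoldin, the CCT chaperonin and the tubulin cofactors. Of 21 such genes 0 were higher and 0 lower by the unadjusted p (again under 0.05), the median was 0.01, and the range was -0.36 to 0.31. *Tbce* and *Arl2*, which act in the last step of heterodimer assembly, differed by -0.32 (SE 0.18) and 0.31 (SE 0.18) on the log2 scale. Tubulin messages are also degraded when free tubulin is plentiful. In that pathway TTC5 binds the start of the nascent tubulin chain on the ribosome, and SCAPER and CNOT11 connect it to the deadenylase that removes the message. The first 12 bases of the coding sequences from GENCODE vM21 encode the part that is recognised. They are shown because they differ between members in a few bases. Among the α-tubulins shown, and among the β-tubulins shown, these differences change no amino acid, so the encoded part is the same within each class.
*Tuba1a*, *Tuba1b* and *Tuba1c* (chromosome 15): atgcgtgagtgc
*Tuba4a* (chromosome 1): atgcgcgagtgc
*Tubb2a* (chromosome 13): atgcgcgagatc
*Tubb2b* (chromosome 13): atgcgagagatc
*Tubb3* (chromosome 8) and *Tubb4b* (chromosome 2): atgagggagatc
*Tubb5* (chromosome 17): atgagggaaatc
*Ttc5* was at 25.2 CPM in mutants and 24.7 CPM in controls, with a log2 fold change of 0.03 (SE 0.10). For *Scaper* the value was -0.17 (SE 0.12) and for *Cnot11* -0.03 (SE 0.09), and the genotypes overlapped for all 3 genes.

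Genes that stabilise microtubules or track their ends had a median log2 fold change of -0.13 over 26 genes, of which 1 was higher and 5 were lower by the unadjusted p, beside 6.4% and 6.89% of all genes. The median was 0.03 within the smaller libraries. *Map2*, a dendritic microtubule-associated protein, was at 232, 249.8, 276 and 199.9 CPM in mutants, against 360.2, 509.7, 382 and 347 CPM in controls, without overlap, and its log2 fold change was -0.74 (SE 0.16). *Tppp3*, a tubulin polymerization-promoting protein, was at 7.82, 10.03, 8.55 and 10.5 CPM in mutants, against 12.1, 40.7, 102 and 12.8 CPM in controls, a log2 fold change of -2.19 (SE 0.66) that was -0.40 within the smaller libraries. DESeq2 called *Tppp3* lower (adjusted p = 0.0202), while the adjusted p of edgeR's quasi-likelihood test was 0.353. *Dcx*, a stabiliser of neuronal microtubules, had a log2 fold change of -0.52 (SE 0.19). Within the smaller libraries *Map2* was at -0.64 and *Dcx* at -0.61 on the log2 scale.

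Among 14 destabilising and severing genes the median was -0.09, and by the unadjusted p 0 were higher and 1 was lower. That gene was *Stmn2*, a neuronal stathmin that binds tubulin dimers, with a log2 fold change of -2.44 (SE 1.07) at levels of 0.588, 0.385, 0.355 and 4.67 CPM in mutants, against 0.960, 18.03, 6.42 and 7.03 CPM in controls. Its log2 fold change was -1.09 within the smaller libraries. Over 20 genes for the modification of tubulin the median was -0.07, with 2 higher and 1 lower. *Svbp*, the partner of the vasohibins that remove the last tyrosine of α-tubulin, had a log2 fold change of 0.69 (SE 0.28), *Agbl5*, a deglutamylase, 0.38 (SE 0.15), and *Agbl4*, another, -1.01 (SE 0.32), which was -0.61 within the smaller libraries. The γ-tubulin ring and augmin genes had a median of 0.11 over 20 genes, led by the augmin subunit *Haus8* at 0.61 (SE 0.20), with 1 higher and 0 lower. That median was -0.05 within the smaller libraries, 0.21 without control 1 and 0.26 with scaling by total counts, where the median of all genes was 0.15. Of 21 kinesin genes 2 were higher and 3 lower, with a median of 0.06, among them *Kif21b* at 0.62 (SE 0.18), *Kif1c* at 0.43 (SE 0.16) and *Kif21a* at -0.46 (SE 0.16), which was -0.23 within the smaller libraries. Of 20 dynein and dynactin genes 0 were higher and 1 lower, the intermediate chain *Dync1i1* at -1.28 (SE 0.46), which was -0.62 within the smaller libraries, with a list median of -0.05. edgeR's test called 0 genes in each of these lists, and DESeq2 called *Tppp3* alone.

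**Figure D5:**
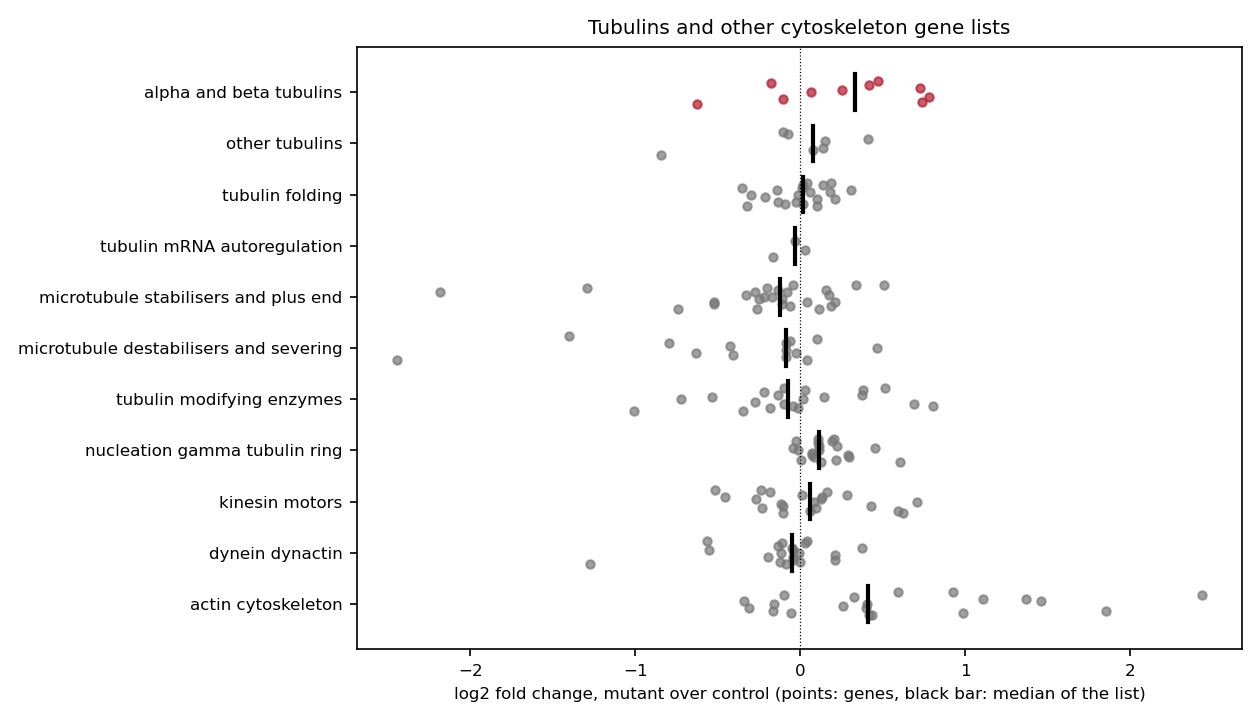
Log2 fold change, mutant over control (x axis), of every tested gene of the tubulin family (red) and of other cytoskeleton gene lists (grey), with the median of each list as a black bar. The median is 0.33 for the α- and β-tubulins and 0.41 for the actin cytoskeleton list, and between -0.13 and 0.11 for the other lists.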

How the data were processed

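RNA-seq of islets from 4 mutant and 4 control samples was analysed. The authors trimmed 50-base single-end reads with Trimmomatic and FASTP, aligned them to GRCm38 (mm10) with STAR and deposited raw counts per gene from featureCounts at default parameters, with gene length in kb as another column. Their table of their own comparison (CPM, fold changes, F, p and FDR) was not used. The table holds 26 symbols in the form of dates, none of a member. No library was present more than once (chi-square per gene of at least 27.9 between any pair).

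Counts were tested in R 4.3.3 with edgeR 4.0.16 (TMM, filterByExpr, quasi-likelihood test, genotype alone, Benjamini-Hochberg adjustment over 15233 genes). The study's methods correct a batch they do not name, so no batch entered. The calling rule was an adjusted p under 0.05 with more than a 2-fold change. CPM used TMM library sizes. Levels between genes were compared per kb. Standard errors are the absolute log2 fold change over the root of F. Libraries held 35.1 to 67.6 M counts. In a simulation of 15065 genes, the quasi-likelihood test recovered 31% of 2-fold changes and made 10 false calls. DESeq2 recovered 55% and made 52 false calls. A gene left uncalled by the quasi-likelihood test can thus still differ, and a call by DESeq2 alone can be false.

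The members and gene lists were chosen with earlier results of these data known. The genes named are all members, the 3 of each list with the smallest p (in part), genes called, the 5 most like the members, and *Itgb1*. Alternatives were DESeq2 1.42.0, the likelihood ratio test, RLE factors, total counts, other filters, a replicate block, a library set term (over 50 M counts), the smaller libraries alone, and leaving out each library. The marker sums beside single members were added after seeing the data. The replicate numbers have no stated meaning. A sequence stretch of some members is not reported here.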

Additional observations from a re-analysis of the deposited data

Results flagged for a closer look

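In 4 of the 48 groups of 4 libraries examined, a single library stood so far from the other 3 that its gap, as a share of the whole range, passed Dixon's 95% critical value for 4 samples. Chance gives about 1 in 20 groups. All 4 concern isotype shares, and each lone library was one of the 3 larger ones. *Tuba1a* made up 70.1% of the α-tubulins in control 3 (gap 0.831 of the range), and *Tuba4a*, whose share falls as that of *Tuba1a* grows, 23.0% in the same library (0.903). *Tubb2a* made up 14.9% of the β-tubulins in mutant 3 (0.881) and 17.7% in control 2 (0.874).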

How the results depend on the processing

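Over all genes, 0 were called by the quasi-likelihood test, 186 by DESeq2, 91 by the likelihood ratio test, 4 with library set as a term and 10 within the 5 smaller libraries, and leaving out single libraries gave 0 to 0. Of the members 0 were called, except 1 (*Tubb6*) within the smaller libraries, and 0 to 0 without single libraries. The microtubule and actin lists together held 0 called genes, 2 with DESeq2 (*Tppp3* and *Vim*) and 1 with the likelihood ratio test, and 0 to 0 without single libraries. The median log2 fold change of the members moved by less than 1 SD between libraries of a genotype under 17 alternatives. The log2 ratio of the summed level did so under 14. That SD was 0.38 for the median, larger than the median itself (0.33), and 0.24 for the log2 ratio (0.36). For the median, staying within it therefore cannot show stability. Without single libraries the 2 values were 0.16 to 0.50 and 0.27 to 0.52. The lowest median, 0.16, came without mutant 3. Scaling by total counts alone moved the median of all genes by 0.15, and relative to it the direction of *Tubb2b* (0.08) and *Tubb3* (0.05) did not turn. The covariation within genotype (0.25) was -0.062 with total counts and spanned 0.098 to 0.58 without single libraries (0.58 without mutant 3, 0.41 without control 2, 0.098 without control 4); the cause was not tested. *Tuba1b*, *Tuba1c*, *Tuba4a*, *Tubb2a*, *Tubb5* and *Tubb6* kept their sign under all 17 alternatives. With a replicate block the median of the members was 0.37, 0 members and 0 genes were called, and *Tubb2b* was at 0.00; the numbers pair nothing by the labels, the deviations of libraries with the same number correlated at 0.42, -0.013, 0.46 and 0.25, and mutant 2 did not correlate best with its own number.

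Depth limits *Tubb2b* most, at 77 to 282 counts in any library. The reads of *Tuba1a*, *Tuba1b* and *Tuba1c* can be split between near copies, and the library set, the sex of mutant 3 and control 3 and the acinar content of controls 2 and 3 fall together in part and were not separated.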

Other observations

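The list of actin cytoskeleton genes, which also holds the intermediate filament gene *Vim*, had a median log2 fold change of 0.41 over 20 genes. That median was 0.26 without mutant 1. At an unadjusted p under 0.05 edgeR's quasi-likelihood test counted 7 of the list higher and 0 lower, against 6.4% and 6.89% of all genes. Of the list, 4 were above all controls in every mutant, against 4.4% of all genes. *Vim* is in both counts. *Acta2* and *Tpm2* are among the 7 and rested on mutant 1. *Acta2* was at 63.8 CPM there and at 4.22 to 8.35 CPM in the other mutants, and *Tpm2* at 17.6 and 2.70 to 4.63 CPM. *Vim*, the intermediate filament protein of mesenchymal cells, was at 216, 159, 165 and 208 CPM in mutants, against 123, 44.7, 40.1 and 82.6 CPM in controls, a log2 fold change of 1.36 (SE 0.35) that was 0.91 within the smaller libraries. DESeq2 called *Vim* higher (adjusted p = 0.0126), while edgeR's test gave an adjusted p of 0.353 and called 0 genes of the list. The actin-binding proteins *Pfn1* (profilin) and *Tagln2* differed by 0.43 (SE 0.11) and 0.40 (SE 0.11) on the log2 scale. The summed fibroblast and pericyte markers were also higher in mutants, at 676 to 897 CPM, against 330.2 to 485 CPM in controls. Summed duct markers were at 1060 to 2944 CPM in mutants, against 304 to 1609 CPM in controls. In controls the order of *Vim* over the libraries was that of the duct sum and not that of the fibroblast and pericyte sum. In mutants it was that of neither. The part of any of these cells was not tested.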
